A study of Mus musculus with 16 samples.

Results

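Chemokines are small secreted proteins that steer the movement of leukocytes and other cells, and chemokine receptors are the membrane proteins that bind them. Members of both families were taken by gene symbol alone, from the names of CC, CXC, CX3C and C ligands, of their conventional receptors and of the atypical receptors Ackr1 to Ackr4 and Ccrl2. This gave 58 genes of the 41204 in the deposited count table, namely 36 ligands, 17 conventional receptors and 5 atypical receptors. Of these, 45 passed the filter on low counts and were tested (27 ligands, 13 conventional receptors and all 5 atypical receptors). The other 13 are described by their read counts only.

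RNA came from 4 tendons of C57BL/6J mice, an inbred laboratory strain, with 4 libraries from each tendon: Achilles (heel) and Patellar (knee) from the hindlimb, and Flexor (forepaw flexor) and Supraspinatus (shoulder) from the forelimb. The labels name no treatment and no engineered allele, and they do not give age or sex. Each label numbers its mouse from 1 to 4 within a tendon, and whether a number marks the same animal in all tendons is not stated. The study's design evaluated mRNA differences between each pair of tendons. Whole tendon RNA holds transcripts of every cell type collected with the tendon.

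Most chemokines share a fold held by cysteine bridges, and the spacing of the first cysteines gives the classes their names. Conventional receptors are G protein-coupled receptors that drive directed migration. Atypical receptors bind chemokines without that coupling and take them up, carry them across endothelium or hold them at the surface, which shapes the local concentration. In connective tissue, Cxcl12 and Cxcl14 are known as products of resting stromal cells, whereas Ccl2, Ccl5, Cxcl9 and Cxcl10 are known for induction by inflammatory signals.

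The coding sequence around the first cysteines is shown for 7 ligands whose levels differ between tendons in the results, because it is what puts them in their classes. Each stretch was read from the GENCODE M21 transcripts for GRCm38, 5′ to 3′, with the codons of the first 2 cysteines of the mature protein in capitals.
Ccl2 (CC): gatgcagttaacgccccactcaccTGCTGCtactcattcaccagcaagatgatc
Ccl5 (CC): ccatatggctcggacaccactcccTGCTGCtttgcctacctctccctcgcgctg
Ccl7 (CC): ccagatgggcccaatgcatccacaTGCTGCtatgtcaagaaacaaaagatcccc
Cxcl12 (CXC): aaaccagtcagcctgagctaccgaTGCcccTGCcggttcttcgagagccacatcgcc
Cxcl13 (CXC): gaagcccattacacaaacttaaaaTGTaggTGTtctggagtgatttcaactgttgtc
Cxcl9 (CXC): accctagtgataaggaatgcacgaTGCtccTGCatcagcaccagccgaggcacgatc
Cx3cl1 (CX3C): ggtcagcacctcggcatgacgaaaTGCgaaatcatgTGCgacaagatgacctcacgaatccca
The cysteine codons touch in Ccl2, Ccl5 and Ccl7, have 1 codon between them in the 3 CXC genes, and have 3 codons between them in Cx3cl1.

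Promoters of 2 members with opposite limb patterns are shown as well, since Cxcl9 was higher and Ackr3 lower in both hindlimb tendons. Each is the 250 bases before the RefSeq start in GRCm38.p6, on the gene's strand, with a TATAAA match in capitals. The Cxcl9 promoter lies on the minus strand at chr5:92328080-92328329, and the Ackr3 promoter on the plus strand at chr1:90203730-90203979.
Cxcl9: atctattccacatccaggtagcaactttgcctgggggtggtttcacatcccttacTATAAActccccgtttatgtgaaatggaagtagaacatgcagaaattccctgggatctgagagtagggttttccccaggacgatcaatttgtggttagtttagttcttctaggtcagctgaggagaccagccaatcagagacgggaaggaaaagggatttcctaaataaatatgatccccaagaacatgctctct
Ackr3: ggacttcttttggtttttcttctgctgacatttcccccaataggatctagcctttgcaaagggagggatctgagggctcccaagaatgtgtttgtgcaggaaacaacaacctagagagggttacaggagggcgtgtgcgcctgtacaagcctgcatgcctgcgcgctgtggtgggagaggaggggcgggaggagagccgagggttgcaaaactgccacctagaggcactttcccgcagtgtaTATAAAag
Short matches of 4 kinds were searched on both strands in the promoters of 32 tested members that had a RefSeq entry. An NF-kB-type pattern, GGG followed by NN and TTTCC with N any base, was found in 4 of the 32 (Ccl9, Ccr3, Cxcl1 and Cxcl2) and in 1.41% of all 32851 promoters. An interferon-response type, GAAA followed by NN and GAAA, was found in 2 (Cxcl10 and Cxcl14) and in 2.98% of all. TTCNNNGAA, a palindromic pattern, was found in 2 (6.25%) and in 7.02% of all. TATAAA was found in 11 and in 12.4% of all. Members with several promoters were counted once if any of them held the match, while the share of all is per promoter. The 2 shares are thus not counted alike, and whether members exceed the background was not tested for any pattern.

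Levels are given as CPM (a library's counts scaled to a common total with TMM factors). Total counts per library were 84414005 to 107805065 in Achilles, Flexor and Supraspinatus and 34559686 to 63235636 in Patellar, so 3 reads of a gene corresponded to 0.0264 to 0.0393 CPM in the former and 0.0391 to 0.104 CPM in Patellar. Genes of rRNA-like sequence took 13.2% to 42.0% of Patellar counts and at most 4.91% elsewhere. All 8 tendon fibroblast markers (Scx, Mkx, Tnmd, Fmod, Thbs4, Col1a1, Col1a2 and Comp) had reads in each tendon. Summed skeletal muscle markers ranged from 345 to 7351 CPM in Patellar, 32463 to 68834 in Achilles, 49994 to 78425 in Flexor and 120576 to 137899 in Supraspinatus. Summed adipocyte markers ranged from 6037 to 20206 CPM in the hindlimb tendons and from 639 to 2246 CPM in the forelimb tendons.

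Across all 4 tendons, 29 of the 45 tested members (64.4%) were called, that is, had an adjusted p under 0.05 (edgeR's quasi-likelihood test with Benjamini-Hochberg adjustment over all genes tested), against 64.9% of all 23754 genes tested. In Flexor minus Achilles, 9 members were called, or 20% against 16.2% of all genes. Of these, 3 were higher (6.67% against 6.5% of all genes) and 6 lower (13.3% against 9.72%). In Patellar minus Achilles, 13 were called, or 28.9% against 38.4%, with 7 higher (15.6% against 17.4%) and 6 lower (13.3% against 21.1%). In Supraspinatus minus Achilles, 17 were called, or 37.8% against 33.6%, with 4 higher (8.89% against 16.9%) and 13 lower (28.9% against 16.7%). Patellar minus Flexor gave 24, or 53.3% against 50.3%, with 15 higher (33.3% against 24.2%) and 9 lower (20% against 26.2%). Supraspinatus minus Flexor gave 8, or 17.8% against 27.1%, with 2 higher (4.44% against 14.7%) and 6 lower (13.3% against 12.4%). Supraspinatus minus Patellar gave 21, or 46.7% against 53.3%, with 5 higher (11.1% against 26.4%) and 16 lower (35.6% against 26.8%). The members' share was above that of all genes in 3 comparisons and below it in the other 3, and is not read as a result about the family.

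The median log2 fold change of the 45 members was -0.60 in Supraspinatus minus Achilles, -0.73 in Supraspinatus minus Patellar and 0.44 in Patellar minus Flexor, beside -0.04, -0.08 and -0.01 over all genes tested. It was 0.40 in Patellar minus Achilles, -0.15 in Flexor minus Achilles and -0.27 in Supraspinatus minus Flexor, beside -0.01, 0.00 and -0.07. Comparisons that share a tendon share its libraries and are not independent. Skeletal muscle marker sums were highest in Supraspinatus and lowest in Patellar, and their part in these medians was not tested.

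**Figure D1:**
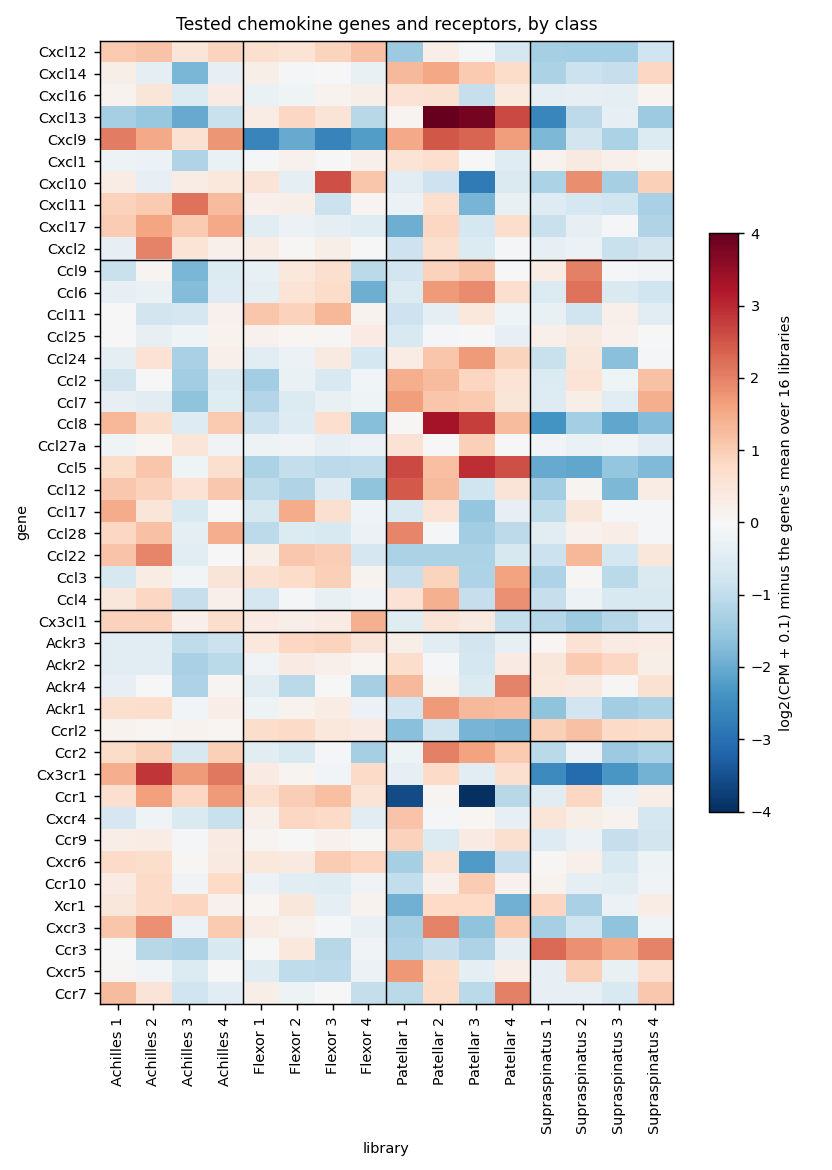
Level of tested members (rows, grouped by class and ordered by mean level within it) in each of the 16 libraries (columns), as log2(CPM + 0.1) minus the gene's mean over the libraries. Cxcl9 is low in all 4 Flexor libraries, Ccl5 is high in all 4 Patellar libraries, Cx3cr1 is high in all 4 Achilles libraries, and Ccr3 is high in all 4 Supraspinatus libraries.

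Scaled by exonic length, so that genes can be compared, Ackr3 was the highest member in 3 tendons, at 87.8 CPM per kilobase in Flexor, 69.6 in Supraspinatus and 46.0 in Patellar. In Achilles the highest was Cxcl12, at 40.1 CPM per kilobase, with Ackr3 at 34.9. The second place went to Cxcl12 in Flexor (38.0 CPM per kilobase), to Cxcl14 in Patellar (42.0) and to Ackr2 in Supraspinatus (25.2). The highest conventional receptor was far below these, Cx3cr1 at 3.37 CPM per kilobase in Achilles. Summed over the class and scaled by length, the 5 atypical receptors reached 60.2, 119, 87.9 and 106 CPM per kilobase in Achilles, Flexor, Patellar and Supraspinatus, and the 17 conventional receptors 10.3, 6.32, 6.68 and 4.31.

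**Figure D2:**
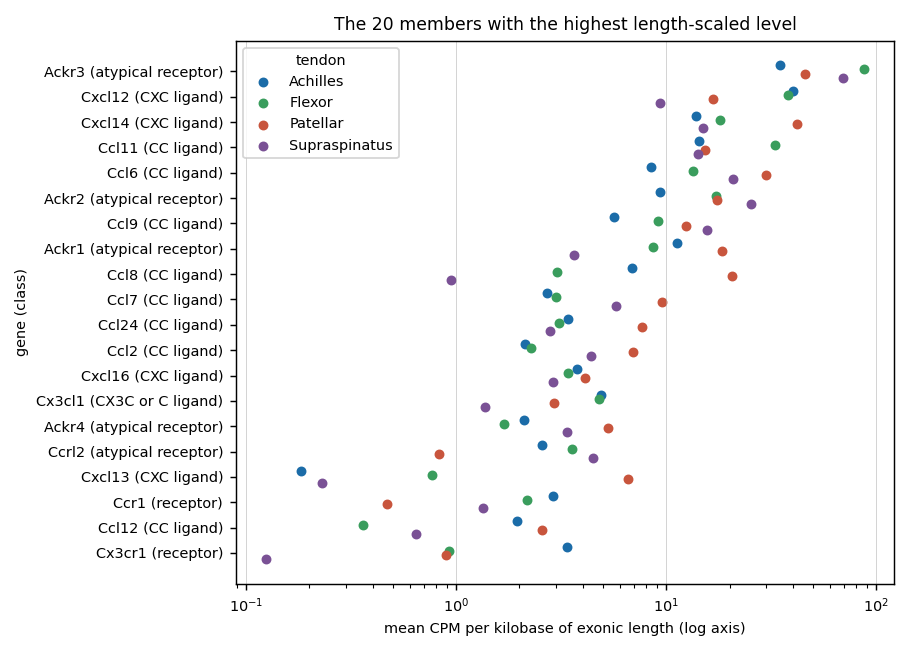
Mean level of the 20 members with the highest length-scaled values, in CPM per kilobase of exonic length on a log axis, with 1 point per tendon (mean of 4 libraries). Ackr3 leads in Flexor, Patellar and Supraspinatus, and Cxcl12 spans 9.35 CPM per kilobase in Supraspinatus to 40.1 in Achilles.

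Cxcl12, the stromal ligand that retains leukocytes and progenitor cells through Cxcr4, was highest in Achilles and Flexor and lowest in Supraspinatus. Its libraries stood at 361, 382, 244 and 324 CPM in Achilles, 274, 254, 324 and 393 in Flexor, 63.4, 211, 164 and 109 in Patellar, and 69.2, 67.6, 67.7 and 101 in Supraspinatus. All Achilles and Flexor libraries lay above all Patellar and Supraspinatus libraries, while Patellar and Supraspinatus overlapped. The log2 fold change was -2.02 ± 0.29 (SE, n = 4 libraries per tendon, adjusted p = 7.9e-05) in Supraspinatus minus Flexor. Adjusted p was 6.6e-05 in Supraspinatus minus Achilles, 0.0027 in each of the Patellar comparisons with Achilles and Flexor, and 0.021 in Supraspinatus minus Patellar. That last call was lost when Patellar 2 or 3 or Supraspinatus 1, 2 or 3 was left out, with adjusted p of 0.054 to 0.085. In bulk RNA, fewer cells of a type and less RNA per cell cannot be told apart. Blood endothelial markers summed to 740 to 995 CPM in Achilles, 494 to 673 in Flexor, 198 to 701 in Patellar and 373 to 407 in Supraspinatus, and their part in the result was not tested.

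Ackr3, the atypical receptor that takes up Cxcl12, showed another order. Its levels were 137, 138, 91.1 and 102 CPM in Achilles, 247, 325, 339 and 265 in Flexor, 219, 139, 111 and 147 in Patellar, and 195, 277, 234 and 226 in Supraspinatus. Every Flexor library lay above every hindlimb library, and among the hindlimb libraries only Patellar 1 reached the Supraspinatus range, while Flexor and Supraspinatus overlapped. The level was higher in Flexor than in Achilles by 1.33 ± 0.20 on the log2 scale (adjusted p = 4e-04). Both forelimb tendons were also higher than Achilles and Patellar in the other comparisons, with adjusted p of 0.0013 in Supraspinatus minus Achilles, 0.0011 in Patellar minus Flexor and 0.019 in Supraspinatus minus Patellar. The call in Supraspinatus minus Patellar was lost without Patellar 2, Patellar 3 or Supraspinatus 2 (adjusted p = 0.051 to 0.056). Cxcr4, the signalling receptor of Cxcl12, had means of 1.02 ± 0.25, 2.09 ± 0.81, 1.96 ± 1.06 and 1.66 ± 0.55 CPM (SD) in Achilles, Flexor, Patellar and Supraspinatus and passed in no comparison (adjusted p = 0.069 to 0.865). It was called higher in Flexor than in Achilles in 4 of 25 alternatives, among them the fit without Patellar 1 (0.038), and higher in Patellar than in Achilles in 3 of 24, among them the fit without Patellar 4 (0.048).

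**Figure D3:**
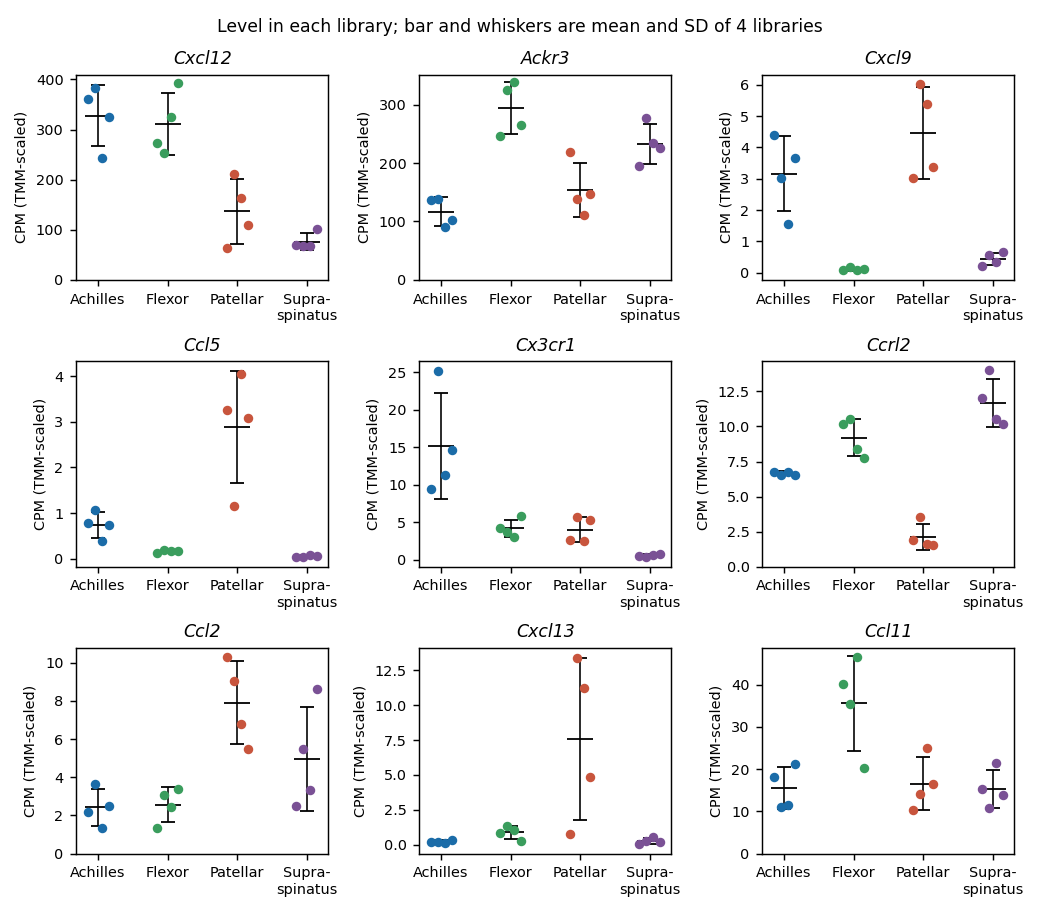
TMM-scaled CPM of 9 members in each library (points), with the mean and SD of 4 libraries (bar and whiskers), by tendon. The Cxcl12 and Ackr3 panels show unlike orders of the tendons, and the Cxcl9 and Ccl5 panels show both hindlimb tendons above both forelimb tendons.

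The other atypical receptors differed too, each in its own pattern. Ackr2 takes up and degrades inflammatory CC chemokines. It measured 35.9, 37.1, 20.1 and 23.3 CPM in Achilles, 44.5, 61.9, 56.8 and 51.9 in Flexor, 79.5, 46.9, 30.0 and 61.6 in Patellar, and 67.0, 102, 88.5 and 57.8 in Supraspinatus. Patellar 3 lay within the Achilles range, and the other 11 libraries lay above it. Achilles was lower than the other 3 tendons, with adjusted p of 0.035 against Flexor, 0.015 against Patellar and 8.4e-04 against Supraspinatus. The first of these was lost without Achilles 3 or 4 or Flexor 2, 3 or 4 (adjusted p = 0.063 to 0.114), and the second without Achilles 3 or Patellar 1 (0.054 and 0.066). Ccrl2, which holds chemerin at the cell surface and does not signal, was lowest in Patellar. Its values were 6.78, 6.52, 6.77 and 6.57 CPM in Achilles, 10.2, 10.5, 8.39 and 7.77 in Flexor, 1.88, 3.52, 1.63 and 1.56 in Patellar, and 12, 14, 10.5 and 10.2 in Supraspinatus. No Patellar library reached any library of another tendon. Adjusted p was 6.8e-05 against Achilles, 3.4e-06 against Flexor and 6.1e-07 against Supraspinatus. Supraspinatus was also higher than Achilles (0.011).

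Ackr1 carries chemokines across venules and is also found on red cell precursors. It was lowest in Supraspinatus, at 3.85, 7.04, 4.52 and 4.96 CPM, against 18.7, 19.6, 11.0 and 14.4 in Achilles, 10.4, 13.3, 14.6 and 10.2 in Flexor, and 7.05, 38.8, 29.3 and 28.4 in Patellar. All 4 Supraspinatus libraries lay below the 12 others, with Supraspinatus 2 close to Patellar 1. Adjusted p was 0.0029 against Achilles and 8.3e-05 against Patellar. The log2 fold change in Supraspinatus minus Flexor was -1.25 ± 0.37 (adjusted p = 0.018), a call lost without Flexor 3, Supraspinatus 1 or Supraspinatus 3 (adjusted p = 0.051 to 0.059). Patellar exceeded Flexor (adjusted p = 0.019), a call lost without Flexor 1 or Patellar 2 (both 0.061). Red blood cell markers summed to 405 to 1760 CPM in Patellar and 32.4 to 183 CPM elsewhere, and their part in the level of Ackr1 was not tested. Of its exonic length, 25.7% overlaps Cadm3 on the same strand, so some of its reads may belong to that gene. Ackr4, which takes up Ccl21 and Ccl25, measured 11.1, 13.6, 5.87 and 14.9 CPM in Achilles, 10.2, 6.52, 14 and 5.46 in Flexor, 34.2, 15.3, 9.55 and 54.7 in Patellar, and 18.8, 18, 14.5 and 21.1 in Supraspinatus. Patellar libraries spread over the range of all other tendons. Patellar was higher than Flexor (adjusted p = 0.0061) and Achilles (0.028), the latter lost without Achilles 1, Achilles 3, Patellar 1 or Patellar 4 (0.057 to 0.154). The call over Achilles was also lost with limma (0.058), no filter (0.071), a block for the mouse number (0.052) and the 8 libraries alone (0.087).

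Cxcl9 and Ccl5 were higher in both hindlimb tendons than in both forelimb tendons. Cxcl9, an interferon gamma-induced ligand of the T cell receptor Cxcr3, stood at 4.39, 3.03, 1.56 and 3.65 CPM in Achilles and 3.03, 6.03, 5.38 and 3.39 in Patellar. It stood at 0.0774, 0.170, 0.0714 and 0.132 CPM in Flexor and 0.216, 0.563, 0.354 and 0.649 in Supraspinatus. All 8 hindlimb libraries exceeded all 8 forelimb libraries, and all Flexor libraries lay below all others. The log2 fold change was -4.79 ± 0.47 (adjusted p = 8.5e-06) in Flexor minus Achilles, 5.29 ± 0.47 (4.5e-07) in Patellar minus Flexor and -2.82 ± 0.42 (1e-04) in Supraspinatus minus Achilles. Supraspinatus was lower than Patellar by -3.32 ± 0.42 (adjusted p = 8.6e-06) and higher than Flexor by 1.97 ± 0.44 (0.0032).

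Ccl5, a ligand of Ccr1 and Ccr3 among others, made by T and NK cells, was highest in Patellar. Its levels were 0.790, 1.07, 0.380 and 0.739 CPM in Achilles, 0.126, 0.180, 0.161 and 0.167 in Flexor, 3.26, 1.15, 4.06 and 3.09 in Patellar, and 0.0325, 0.0262, 0.0855 and 0.0569 in Supraspinatus. The 4 tendons did not overlap in any library, but Supraspinatus 1 stood at its 3-read floor and Supraspinatus 2 under its floor of 0.0393 CPM. Supraspinatus minus Patellar gave -5.80 ± 0.51 on the log2 scale (adjusted p = 2.4e-07) and Patellar minus Achilles 1.95 ± 0.41 (0.0014). Flexor minus Achilles gave -2.22 ± 0.42 (0.0022), Patellar minus Flexor 4.17 ± 0.45 (2.5e-06) and Supraspinatus minus Achilles -3.85 ± 0.48 (2.5e-05). Supraspinatus lay below Flexor by -1.63 ± 0.49 (adjusted p = 0.021), which was lost without Supraspinatus 1 or 2 (0.068 and 0.064) and with limma (0.099). NK cell markers (5 genes) summed to 0.556 to 1.15 CPM in Achilles, 0.0446 to 0.212 in Flexor, 0.104 to 2.64 in Patellar and 0.110 to 0.273 in Supraspinatus. T cell markers (8 genes) summed to 1.75 to 2.44 CPM in Achilles, 1.06 to 1.49 in Flexor, 0.850 to 4.57 in Patellar and 1.85 to 3.55 in Supraspinatus. Cd8a had no read in Flexor, and Ncr1 none in Supraspinatus. Dendritic cell markers (8 genes) summed to 77.1 to 439 CPM in the hindlimb tendons and 34 to 81.5 CPM in the forelimb tendons, and the adipocyte sums given above separated the limbs without overlap. The part of these cells in the levels of Cxcl9 and Ccl5 was not tested.

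The other Cxcr3 ligands did not follow Cxcl9. Cxcl11 was highest in Achilles, at 1.30, 1.43, 3.23 and 1.68 CPM, against 0.764, 0.770, 0.312 and 0.705 in Flexor, 0.528, 1.08, 0.104 and 0.511 in Patellar, and 0.422, 0.354, 0.330 and 0.205 in Supraspinatus. Every Achilles library exceeded the 12 others. The log2 fold change was -2.54 ± 0.51 in Supraspinatus minus Achilles (adjusted p = 0.0014), -1.73 ± 0.50 in Patellar minus Achilles (0.013) and -1.58 ± 0.49 in Flexor minus Achilles (0.037). The Patellar call was lost without Achilles 3 (0.054). The Flexor call was lost without Achilles 3 or 4, any Flexor library or Supraspinatus 3 (0.051 to 0.129). GENCODE classes Cxcl11 as a polymorphic pseudogene, so its RNA is not read here as a working ligand. Of the exonic length of Cxcl11, 41.7% overlaps Gm2673 on the opposite strand. Cxcl10 was called in 1 comparison, Patellar minus Flexor, at -2.58 ± 0.90 (adjusted p = 0.025), and did not pass over all 4 tendons (0.09). Its means were 0.716 ± 0.170, 1.73 ± 1.64, 0.278 ± 0.194 and 1.03 ± 1.08 CPM (SD) in Achilles, Flexor, Patellar and Supraspinatus, with Flexor 3 at 4.11 CPM. Without Flexor 3 the difference was -1.71 (adjusted p = 0.123), and without Patellar 2 adjusted p was 0.052. It was 0.057 with limma and 0.06 with a block for the mouse number.

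Cxcr3, the receptor of these ligands, was sparse and did not pass the test over all 4 tendons (adjusted p = 0.079). It had means of 0.563, 0.219, 0.420 and 0.0678 CPM in Achilles, Flexor, Patellar and Supraspinatus and was lower in Supraspinatus than in Achilles by -3.02 ± 1.05 on the log2 scale (adjusted p = 0.036). This call was lost without Achilles 1, 2 or 4 or Supraspinatus 1, 2 or 3 (adjusted p = 0.061 to 0.098), and the difference was -4.05 without Supraspinatus 4. Supraspinatus was also lower than Patellar (adjusted p = 0.043). That call was lost when any of 11 single libraries was left out (0.052 to 0.275), with -1.47 without Patellar 2. Other settings that lost it were limma (0.204), no filter (0.064) and a block for the mouse number (0.059). Of 16 interferon response genes tested, 11 were higher and 1 lower in Patellar minus Flexor, where 24.2% of all genes were higher and 26.2% lower. Among the 11 were Oas1a (log2 fold change 1.75 ± 0.35, SE), Oasl2 (1.33 ± 0.29) and Irf7 (1.70 ± 0.39). The list's median log2 fold change was 0.89 there, beside -0.01 over all genes. In Patellar minus Achilles 3 were higher and 0 lower (17.4% and 21.1% of all genes), and in Supraspinatus minus Patellar 1 and 4 (26.4% and 26.8%). Supraspinatus minus Achilles gave 2 and 2 (16.9% and 16.7%), and Supraspinatus minus Flexor 2 and 1 (14.7% and 12.4%). In Flexor minus Achilles 1 was higher and 2 lower (6.5% and 9.72%), with Iigp1 at -1.42 ± 0.29 and Irf1 at -0.76 ± 0.17. Ifng itself had no read in Achilles, Flexor or Supraspinatus.

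Ccl2 and Ccl7 were higher in Patellar than in Achilles and Flexor. Ccl2, the main ligand of Ccr2, measured 2.19, 3.67, 1.36 and 2.47 CPM in Achilles, 1.35, 3.08, 2.43 and 3.41 in Flexor, 10.3, 9.04, 6.80 and 5.46 in Patellar, and 2.49, 5.47, 3.33 and 8.60 in Supraspinatus. Ccl7, a second Ccr2 ligand, measured 2.66, 2.53, 1.04 and 2.41 CPM in Achilles, 1.44, 2.29, 2.78 and 3.01 in Flexor, 11.1, 7.40, 7.15 and 4.79 in Patellar, and 2.35, 3.98, 2.48 and 9.58 in Supraspinatus. For both genes all Patellar libraries exceeded all Achilles and Flexor libraries and overlapped Supraspinatus. Patellar minus Achilles gave 1.71 ± 0.40 for Ccl2 (adjusted p = 0.0034) and 1.82 ± 0.45 for Ccl7 (0.0044). Both were also higher in Patellar than in Flexor (0.0032 and 0.0049).

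Ccl8 spread more widely between libraries. It measured 5.20, 3.29, 1.36 and 4.18 CPM in Achilles, 1.06, 1.35, 3.21 and 0.546 in Flexor, 2.07, 21.0, 14 and 4.98 in Patellar, and 0.303, 0.707, 0.391 and 0.535 in Supraspinatus. Supraspinatus minus Patellar gave -4.44 ± 0.72 (adjusted p = 9.2e-05), Supraspinatus minus Achilles -2.86 ± 0.68 (0.0043) and Patellar minus Flexor 2.77 ± 0.66 (0.0025), the last at 3.40 without Flexor 3. Patellar minus Achilles did not pass (adjusted p = 0.059). Ccl12, a mouse Ccr2 ligand, measured 1.17, 1.03, 0.789 and 1.17 CPM in Achilles, 0.193, 0.160, 0.321 and 0.0970 in Flexor, 3.15, 1.33, 0.243 and 0.754 in Patellar, and 0.130, 0.550, 0.0733 and 0.638 in Supraspinatus. Patellar minus Flexor gave 2.83 ± 0.72 (adjusted p = 0.0038), which was 1.99 without Patellar 1. Flexor minus Achilles gave -2.42 ± 0.70 (0.028), a call lost without Achilles 1 or 4 or Flexor 1, 2 or 4 (0.056 to 0.081). Supraspinatus minus Patellar (0.024) was lost without Patellar 1, Supraspinatus 1 or Supraspinatus 3 (0.065 to 0.143).

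Ccr2, the receptor of inflammatory monocytes, stood at 10.4, 12, 3.94 and 12.2 CPM in Achilles, 4.54, 4.03, 5.92 and 2.42 in Flexor, 5.42, 25.1, 19.1 and 12.8 in Patellar, and 2.87, 5.20, 2.21 and 2.51 in Supraspinatus. The groups overlapped, with Achilles 3 and Patellar 1 among the forelimb values. Adjusted p was 5.8e-04 in Supraspinatus minus Patellar, 0.0025 in Patellar minus Flexor and 0.012 in Supraspinatus minus Achilles. Ccr1, a receptor of Ccl3, Ccl5 and Ccl7 on myeloid cells, went the other way in Patellar. It measured 5.37, 10.5, 5.90 and 11.0 CPM in Achilles, 5.18, 6.67, 7.83 and 4.87 in Flexor, 0.184, 3.55, 0.104 and 1.48 in Patellar, and 2.46, 5.93, 2.78 and 4.03 in Supraspinatus. Patellar minus Achilles gave -2.56 ± 0.69 (adjusted p = 0.0079), which was -3.77 without Patellar 2, and Patellar was also lower than Flexor (0.015). With the 8 libraries of each comparison alone, adjusted p was 0.053 and 0.067. The 10 macrophage markers summed to 383 to 2075 CPM with all tendons overlapping, and their part was not tested. Dendritic cell markers (8 genes) summed to 77.1 to 263 CPM in Achilles, 39.3 to 81.5 in Flexor, 126 to 439 in Patellar and 34.0 to 45.5 in Supraspinatus. Of these 8, which include the member Xcr1, 4 were higher in Patellar than in Flexor, where 24.2% of all genes were higher. The part of dendritic cells in the levels of Ccr2 was not tested.

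**Figure D4:**
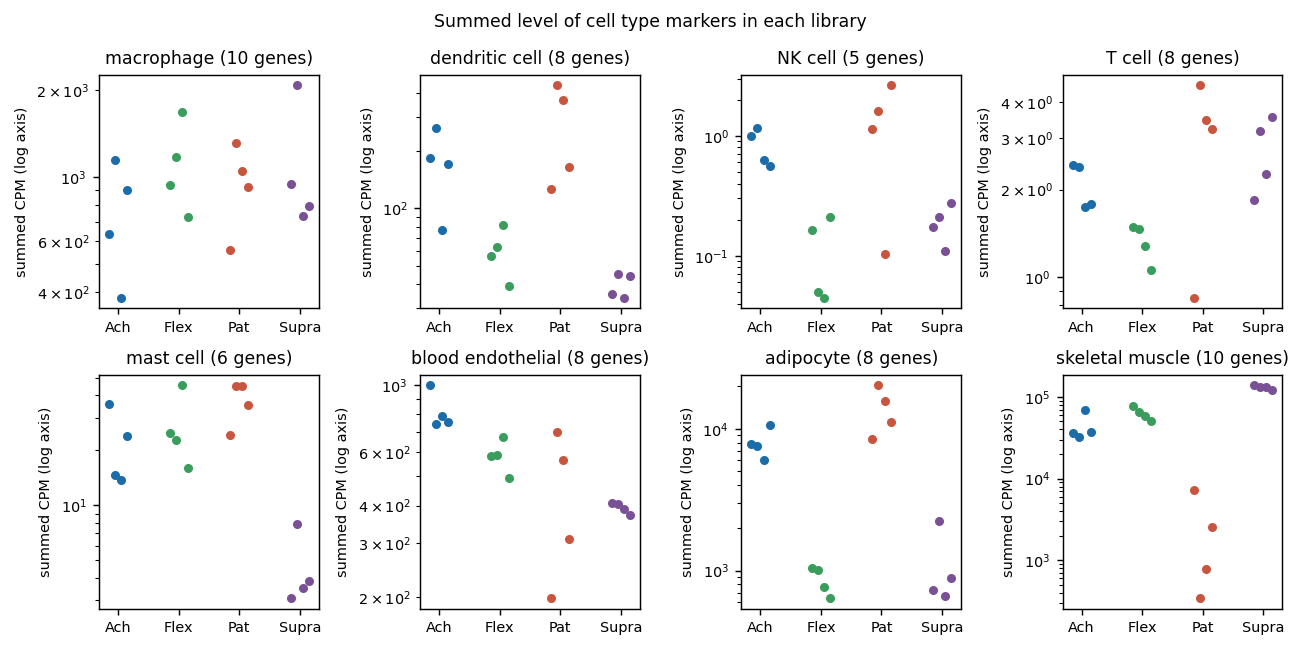
Summed CPM of 8 cell type marker lists in each library (points, log axis) by tendon. Macrophage sums overlap in all tendons, dendritic cell sums are lowest in Supraspinatus and Flexor, and adipocyte sums of all hindlimb libraries lie above those of all forelimb libraries.

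Cx3cl1 and its receptor Cx3cr1 were both lowest in Supraspinatus. Cx3cl1 is a membrane-anchored ligand of endothelium and nerve. It measured 22.4, 22.2, 13.5 and 19.0 CPM in Achilles, 14.6, 13.8, 14.7 and 31.6 in Flexor, 8.38, 16.7, 15 and 5.95 in Patellar, and 5.24, 4.35, 5.23 and 6.80 in Supraspinatus. Supraspinatus lay below all Achilles and Flexor libraries, and Patellar 4 fell within its range. Supraspinatus minus Flexor gave -1.79 ± 0.33 (adjusted p = 7.1e-04), and Supraspinatus was also lower than Achilles (5.6e-04) and Patellar (0.011). Cx3cr1, the receptor of patrolling monocytes and some tissue macrophages, measured 9.46, 25.2, 11.3 and 14.7 CPM in Achilles, 4.23, 3.65, 3.08 and 5.78 in Flexor, 2.66, 5.75, 2.46 and 5.27 in Patellar, and 0.487, 0.314, 0.586 and 0.843 in Supraspinatus. All Achilles libraries lay above, and all Supraspinatus libraries below, the rest. Supraspinatus minus Achilles gave -4.76 ± 0.43 (adjusted p = 1.6e-06), Supraspinatus minus Flexor -2.90 ± 0.40 (4.6e-05) and Supraspinatus minus Patellar -2.86 ± 0.40 (2.1e-05). Achilles exceeded Flexor (-1.86 ± 0.37 in Flexor minus Achilles, 0.0029) and Patellar (-1.90 ± 0.37 in Patellar minus Achilles, 9e-04). Schwann cell markers (6 genes) summed to 824 to 5580 CPM in Achilles, 1762 to 4660 in Flexor, 492 to 764 in Patellar and 440 to 529 in Supraspinatus, and their part was not tested.

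Of the eosinophil axis, Ccl11, Ccl24 and their receptor Ccr3 each had the highest mean in a different tendon, with both ligands detected in all 4. Ccl11, or eotaxin, was highest in Flexor, at 40.1, 35.3, 46.6 and 20.3 CPM, against 18.2, 11.1, 11.6 and 21.1 in Achilles, 10.4, 14, 25.1 and 16.5 in Patellar, and 15.2, 10.7, 21.4 and 13.8 in Supraspinatus. Flexor 4 lay among the values of the other tendons. Flexor minus Achilles gave 1.20 ± 0.31 (adjusted p = 0.015), lost without Achilles 2 or Flexor 3 (0.057 and 0.055), and Supraspinatus minus Flexor gave -1.22 ± 0.31 (0.0077). Ccl24, a second eotaxin, measured 3.56, 6.89, 1.79 and 5.32 CPM in Achilles, 3.39, 3.88, 5.94 and 2.77 in Flexor, 5.72, 10.1, 15.2 and 8.61 in Patellar, and 2.43, 6.31, 1.38 and 4.43 in Supraspinatus. It was higher in Patellar than in Flexor (adjusted p = 0.028) and Supraspinatus (0.016). The Flexor call was lost without Flexor 1, 2 or 4 or Patellar 3 (0.062 to 0.095), and the Supraspinatus call without Patellar 3 or Supraspinatus 1 (both 0.053). Ccr3, the receptor of both, measured 1.05, 0.733, 0.574 and 0.843 CPM in Supraspinatus, 0.140, 0.00992, 0 and 0.0547 in Achilles, 0.135, 0.220, 0.00892 and 0.115 in Flexor, and 0, 0.0260, 0 and 0.0807 in Patellar. All Supraspinatus libraries exceeded the 12 others. Supraspinatus minus Flexor gave 2.73 ± 0.83 (adjusted p = 0.022), lost without Flexor 1, 3 or 4 or Supraspinatus 1 (0.052 to 0.058). The fitted difference was 3.93 ± 0.90 over Achilles (0.0032), or 5.09 without Achilles 1, and 4.82 ± 1.06 over Patellar (0.0012), or 5.84 without Patellar 4. Every Patellar library, Achilles 2, Achilles 3 and Flexor 3 stood at or under the 3-read floor, so the size of these differences is uncertain.

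Cxcl13 and Cxcl14 were higher in Patellar than in every other tendon. Cxcl13, the B cell attractant of lymphoid follicles, measured 0.220, 0.179, 0.0999 and 0.337 CPM in Achilles, 0.880, 1.34, 1.05 and 0.273 in Flexor, 0.758, 13.4, 11.2 and 4.87 in Patellar, and 0.0325, 0.288, 0.537 and 0.194 in Supraspinatus. Patellar 1 lay among the Flexor values, while the other 3 Patellar libraries exceeded all others. Patellar minus Achilles gave 5.17 ± 0.86 (adjusted p = 2.4e-04), Patellar minus Flexor 3.09 ± 0.77 (0.0033) and Supraspinatus minus Patellar -4.85 ± 0.85 (1.8e-04), the last at -5.46 without Supraspinatus 3. Its receptor Cxcr5 had means of 0.136, 0.0668, 0.351 and 0.236 CPM in Achilles, Flexor, Patellar and Supraspinatus and was called in Patellar minus Flexor (2.38 ± 0.67, adjusted p = 0.0075; 1.67 without Patellar 1). B cell markers (6 genes) summed to 0.347 to 2.94 CPM in Patellar and 0.209 to 2.52 CPM elsewhere, and their part was not tested. Cxcl14, a ligand of fibroblasts and epithelia, measured 39.5, 26.0, 9.34 and 26.9 CPM in Achilles, 39.1, 32.5, 33.2 and 27.5 in Flexor, 82.7, 98.7, 69.7 and 56.0 in Patellar, and 13.9, 18.3, 17.6 and 60.1 in Supraspinatus. Supraspinatus 4 alone reached the Patellar range. Adjusted p was 0.009 against Achilles, 0.028 against Flexor and 0.0092 against Supraspinatus. The Flexor call was lost without Flexor 2, 3 or 4 or Patellar 1 or 2 (0.057 to 0.063).

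**Figure D5:**
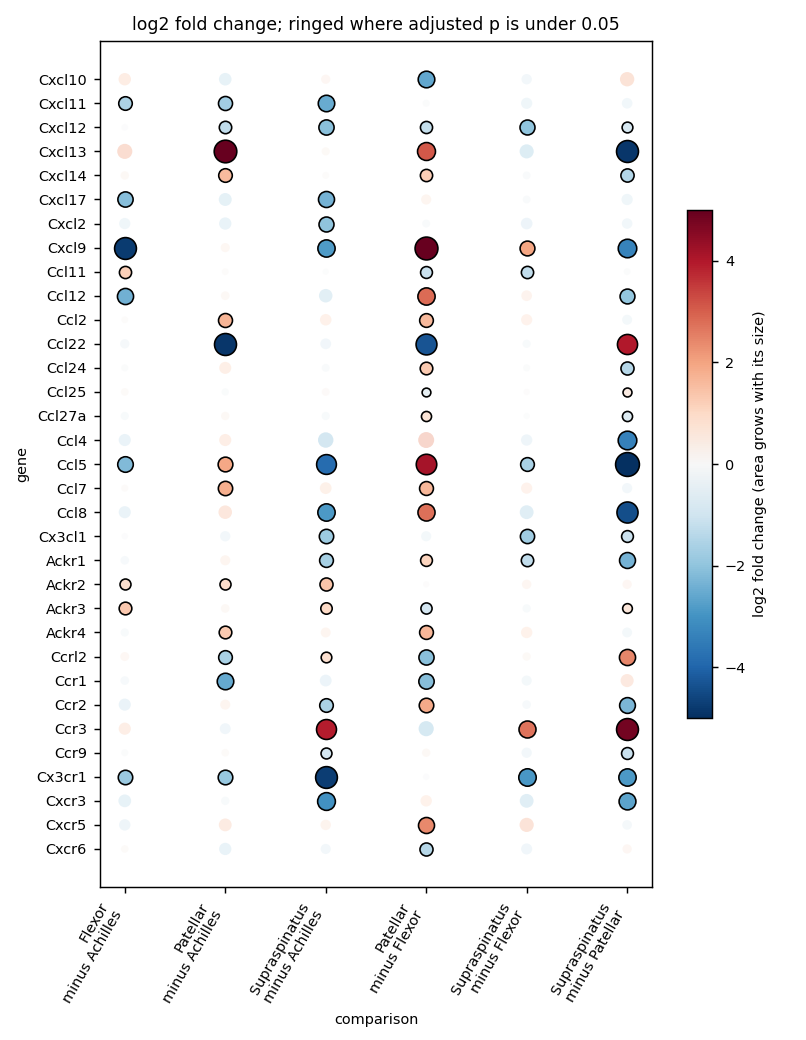
Log2 fold change (colour, with area growing with its size) of members called in at least 1 comparison, in the 6 comparisons. Rings mark an adjusted p under 0.05, and blue ringed points gather in the columns of Supraspinatus minus Achilles and Supraspinatus minus Patellar.

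Ccl6 and Ccl9, macrophage-derived ligands of Ccr1, each took the largest share of CC ligand CPM in at least 1 tendon and were called in no comparison. Ccl6 ranged from 5.93 to 105 CPM and Ccl9 from 7.37 to 107 CPM over the 16 libraries, each highest in Supraspinatus 2. That library also had the highest macrophage marker sum (2075 CPM). Flexor 3, with a sum of 1670 CPM, had Ccl6 at 38.8 and Ccl9 at 41.6 CPM. Patellar 3, with a sum of 1051 CPM, had them at 86.2 and 58.9 CPM. The part of macrophages in these levels was not tested. Without Supraspinatus 2, Ccl6 was lower in Supraspinatus than in Patellar by -1.84 (adjusted p = 0.021), and higher in Patellar than in Achilles by 1.81 (0.018), a call made in 6 of 24 alternatives. Those without Flexor 4 (0.045) and without Patellar 1 (0.032) were among them. Ccl9 was called higher in Supraspinatus than in Achilles in 10 of 25 alternatives, by 1.27 to 1.84. Single libraries whose omission gave that call were Achilles 2, Flexor 4, Patellar 1, Patellar 3, Supraspinatus 3 and Supraspinatus 4 (0.035 to 0.047). Cxcl16, Cxcl1, Ccl17, Ccl28, Ccl3, Ccr7, Ccr10 and Xcr1 were also called in none, with tendon means of 8.69 to 12.4 CPM for Cxcl16, 1.11 to 1.85 for Cxcl1 and under 0.5 for the other 6. Of these, Ccl17, Ccr7 and Xcr1 were called in no alternative either. Cxcl16 was lower in Supraspinatus than in Patellar without Patellar 3 (-0.76, adjusted p = 0.0073). Cxcl1 was higher in Patellar than in Achilles in 5 of 24 alternatives, among them those without Patellar 3 (0.043) or Patellar 4 (0.019), and higher in Supraspinatus than in Achilles in 3 of 25. Ccl28 was lower in Flexor than in Achilles in 5 of 24, among them those without Patellar 1 (0.021) or Patellar 3 (0.037). It was also called in Patellar minus Achilles without Patellar 1 (-2.41, 0.026) and in Patellar minus Flexor without Patellar 3 (2.20, 0.034). Ccl3 was lower in Supraspinatus than in Flexor in 6 of 24, among them those without Patellar 3 (0.048) or Supraspinatus 2 (0.043). It was lower in Supraspinatus than in Patellar without Patellar 1, Patellar 3 or Supraspinatus 2 (0.028 to 0.036). Ccr10 was lower than in Achilles in Flexor and in Supraspinatus in 2 of 24 each, and higher in Patellar than in Flexor without Patellar 1 (0.99, 0.044).

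Ccl27a, a skin ligand of Ccr10, measured 2.29, 2.72, 3.68 and 2.31 CPM in Achilles, 2.24, 2.36, 2.02 and 2.19 in Flexor, 3.91, 2.59, 5.10 and 2.64 in Patellar, and 2.40, 2.15, 2.32 and 1.91 in Supraspinatus. It was higher in Patellar than in Flexor (adjusted p = 0.027) and Supraspinatus (0.025). The Flexor call was lost without Flexor 1 or 3 or Patellar 1 or 3 (0.069 to 0.117), and the Supraspinatus call without Patellar 1 or 3 or Supraspinatus 2 or 4 (0.056 to 0.085). Of its 50-base stretches, 45% also occur in near-identical copies, so its count is uncertain.

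Ccr9, the gut-homing receptor of Ccl25, measured 1.26, 1.31, 0.979 and 1.32 CPM in Achilles, 1.14, 1.02, 1.20 and 1.07 in Flexor, 2.07, 0.690, 1.32 and 1.67 in Patellar, and 0.703, 0.864, 0.501 and 0.581 in Supraspinatus. It was lower in Supraspinatus than in Patellar (adjusted p = 0.0065) and Achilles (0.036), the latter lost without Achilles 1, 2 or 4 or Supraspinatus 1, 3 or 4 (0.067 to 0.109), and 21.5% of its exonic length overlaps other genes. Ccl25 had means of 7.86, 9.23, 6.93 and 9.44 CPM in Achilles, Flexor, Patellar and Supraspinatus and was lower in Patellar than in Flexor (0.044) and Supraspinatus (0.03). Ccl25 did not pass the test over all 4 tendons (adjusted p = 0.071). The Flexor call was lost when any of 11 single libraries was left out (0.052 to 0.149). The Supraspinatus call was lost without Patellar 1 or 4 or Supraspinatus 1 or 2 (0.053 to 0.08). Cxcl17, a mucosal ligand, was higher in all 4 Achilles libraries (0.690 to 1.06 CPM) than in the 12 others (0 to 0.586 CPM). Supraspinatus minus Achilles gave -2.38 ± 0.69 (adjusted p = 0.014) and Flexor minus Achilles -2.12 ± 0.67 (0.041), the latter lost without any 1 Achilles or Flexor library or Supraspinatus 1 or 2 (0.052 to 0.103).

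Low members called elsewhere were Ccl4, Cxcl2, Cxcr6 and Ccl22. Ccl4, an inflammatory CC ligand, was lower in Supraspinatus (mean 0.0282 CPM) than in Patellar (0.288 CPM), by -3.36 ± 1.08 (adjusted p = 0.016, and 0.07 with limma). The difference was -4.12 without Supraspinatus 2. Supraspinatus 1, 3 and 4 stood under their 3-read floor for Ccl4 and Patellar 3 had no read, so the size of this difference is uncertain. Cxcl2, a neutrophil attractant, was lower in Supraspinatus (0.110 CPM) than in Achilles (0.452 CPM, with Achilles 2 at 1.08), with adjusted p of 0.019, and of 0.135 without Achilles 2, 0.063 without Supraspinatus 3 and 0.052 without Supraspinatus 4. Cxcr6, the receptor of Cxcl16, was lower in Patellar (0.324 CPM) than in Flexor (0.946 CPM; 0.039), a call lost without Flexor 3 or 4 or Patellar 1 or 4 (0.075 to 0.089). With the 8 libraries of this comparison alone, adjusted p was 0.132, and in the test of Cxcr6 over all 4 tendons it was 0.095. The Patellar libraries of Cxcr6 stood at 0.161, 0.859, 0.0347 and 0.242 CPM. Without Patellar 2, the highest of them, Patellar was also lower than Achilles (-2.42, adjusted p = 0.0009) and Supraspinatus (1.72 in Supraspinatus minus Patellar, 0.0063). Ccl22, a dendritic cell ligand of Ccr4, was 0 in 3 Patellar libraries and 0.0538 CPM in Patellar 4, under the 3-read floor, and ranged from 0.0325 to 0.833 CPM in the other tendons. It was called lower in Patellar in all 3 comparisons (adjusted p = 0.0099 against Achilles, 0.015 against Flexor and 0.024 against Supraspinatus). The Flexor call was lost without Patellar 2 (0.055), and the Supraspinatus call without Patellar 1, Patellar 2 or Supraspinatus 2 (0.058 to 0.084) and with limma (0.086).

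The 13 members that were not tested had 4 to 109 reads each over all 16 libraries. Cxcl3 had 109 reads, 95 of them in Achilles 2, which was also the highest library for its neighbour Cxcl2. Cxcl5 had 60 reads, Cxcr2, the neutrophil receptor, 50, Ccr8 43 and Ccr6 37. Ccl1, Ccr4, Xcl1 and Ccl21b had 17 each, Ccl27b 11, Ccl20 6, and Ccl21a and Cxcl15 4 each. Of Ccl21b, Ccl27b and Ccl21a, 100%, 98.1% and 71.6% of 50-base stretches occur in other genes, so their counts are uncertain.

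Genes that act downstream of the receptors were taken from a list of 30, all tested. In Patellar minus Achilles 13 were higher and 3 lower, against 17.4% and 21.1% of all genes. In Patellar minus Flexor the list gave 12 and 4 (24.2% and 26.2% of all genes), and in Supraspinatus minus Patellar 2 and 17 (26.4% and 26.8%). The other comparisons gave 3 higher and 4 lower in Flexor minus Achilles (6.5% and 9.72%), 3 and 4 in Supraspinatus minus Achilles (16.9% and 16.7%) and 6 and 3 in Supraspinatus minus Flexor (14.7% and 12.4%). Gnai1, an inhibitory G protein alpha subunit, differed by 4.05 ± 0.37 (log2, SE) in Patellar minus Flexor and by -3.52 ± 0.36 in Supraspinatus minus Patellar. Rac1, a GTPase of cell migration, was higher in Supraspinatus than in Flexor by 2.79 ± 0.24. The list's median log2 fold change was 0.43, 0.48 and -0.54 in Patellar minus Achilles, Patellar minus Flexor and Supraspinatus minus Patellar, beside -0.01, -0.01 and -0.08 over all genes. Of 22 inducing cytokines and NF-kB genes tested, 5 were called in Patellar minus Flexor, 4 higher and 1 lower, where 50.3% of all genes were called, with Relb at 1.15 ± 0.15, Nfkb1 at 1.11 ± 0.15 and Rel at -1.64 ± 0.42. In Supraspinatus minus Patellar 5 were called, 1 higher and 4 lower (53.3% of all genes). Calls were 2 lower in Flexor minus Achilles (16.2%), 2 higher in Patellar minus Achilles (38.4%), 1 higher and 2 lower in Supraspinatus minus Achilles (33.6%), and 1 higher and 2 lower in Supraspinatus minus Flexor (27.1%).

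Of family-related genes, mostly ones that the symbol rule leaves out, 10 were tested. Higher and lower calls were 2 and 2 in Flexor minus Achilles, against 6.5% and 9.72% of all genes. Patellar minus Achilles gave 3 and 1 (17.4% and 21.1%), and Supraspinatus minus Achilles 2 and 4 (16.9% and 16.7%). Patellar minus Flexor gave 3 and 1 (24.2% and 26.2%), Supraspinatus minus Flexor 0 and 2 (14.7% and 12.4%), and Supraspinatus minus Patellar 1 and 4 (26.4% and 26.8%). Rarres2, which encodes the Ccrl2 ligand chemerin, had means of 69.3 ± 17.9, 33.6 ± 2.4, 153 ± 34.5 and 17.4 ± 7.6 CPM (SD) in Achilles, Flexor, Patellar and Supraspinatus. It differed in all 6 comparisons, from 2.19 ± 0.26 in Patellar minus Flexor to -3.14 ± 0.27 in Supraspinatus minus Patellar. Adipocyte marker sums had means of 8037, 864.5, 13933 and 1128 CPM in the same order. All 8 markers were called in both of these comparisons, where 50.3% and 53.3% of all genes were called. Their part in the level of Rarres2 was not tested. Cmklr1, the signalling chemerin receptor, had means of 13.4, 24.1, 32.2 and 7.30 CPM. Patellar thus had the highest means of Rarres2 and Cmklr1 and the lowest of Ccrl2. Dpp4, a peptidase that trims chemokines such as Cxcl12, had a mean of 5.87 ± 3.37 CPM in Achilles, below 33.8 ± 14.1 in Flexor, 49.8 ± 17.1 in Patellar and 69.2 ± 16.8 in Supraspinatus, with log2 fold changes of 2.53 ± 0.42, 3.08 ± 0.43 and 3.56 ± 0.43 over Achilles.

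The authors' deposited table of comparisons holds 24 of the 58 members. Members were counted as called there where its FDR was under 0.05, a threshold set here. That gave 5, 13, 10, 17, 7 and 14 of them in Flexor minus Achilles, Patellar minus Achilles, Supraspinatus minus Achilles, Patellar minus Flexor, Supraspinatus minus Flexor and Supraspinatus minus Patellar. Every member called both in the authors' deposited table and here (5, 10, 10, 17, 6 and 12 in the same order) had the same direction in both. Calls in the authors' deposited table alone included Ccl6, Ccl8 and Ccl24 in Patellar minus Achilles, Ccl8 in Supraspinatus minus Flexor, and Cxcl16 in Supraspinatus minus Patellar. Of the 24, those called here and not in the authors' deposited table were Ccl25 in Patellar minus Flexor, and Ackr3 and Ccl25 in Supraspinatus minus Patellar.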

How the data were processed

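RNA from 4 tendons of C57BL/6J mice was sequenced, with 4 libraries per tendon that the labels number as mice 1 to 4. The submitters' processing notes name edgeR, FastQC and HISAT2 and the build mm10. The sources used here do not give the counter, its strand setting or the annotation, so overlapping and antisense genes cannot be separated. The authors deposited whole-number read counts for 41204 genes, and a table of log2 fold changes, p-values and FDR values whose model the sources used here do not give.

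Counts were fitted with edgeR 4.0.16 in R 4.3.3: filterByExpr by tendon (23754 genes), TMM scaling, robust quasi-likelihood fitting of all 16 libraries with a mean for each tendon, 6 two-sided contrasts and a test over all 4 tendons, with Benjamini-Hochberg adjustment over all genes and a threshold of 0.05. The standard error of a log2 fold change was taken as its size over the root of the F statistic. Levels are TMM-scaled CPM. Exonic lengths and overlaps came from GENCODE M21 (GRCm38, the same assembly as mm10), and 44 of the 58 members had a RefSeq promoter. The model was also run on counts simulated with its own fitted spread, which cannot check the model's assumptions.

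Members past the all-tendon test with a mean of at least 1 CPM in some tendon are given in every library (23 genes). Fold changes of the main fit are given for at most 8 called members per comparison, by size. They are also given for at most 4 genes per comparison of 4 pathway lists, by adjusted p. Log2 differences from alternatives are given as well, some for members that were called only in those alternatives. Markers of 17 cell types were summed. The members and lists were chosen with earlier results of these data known. Alternatives were median-ratio size factors, no filter, a mean of at least 1 CPM, limma-voom (limma 3.58.1), DESeq2 1.42.0, a block for the label's mouse number, leaving out rRNA-like genes, leaving out Patellar, the 8 libraries of a comparison alone, and leaving out each library. Figures were drawn with matplotlib 3.10.9. The values of 2 genes are not reported here, although both stay in the counts of genes.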

Additional observations from a re-analysis of the deposited data

Results flagged for a closer look

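In 6 of 92 groups of 4 libraries, 1 library stood far from the other 3 (Dixon's test at 95%, for which chance gives about 1 in 20 groups). Cxcl12 reached 101 CPM in Supraspinatus 4, against 67.6 to 69.2 CPM in the other Supraspinatus libraries. Cxcl14 reached 60.1 CPM in the same library, against 13.9 to 18.3 CPM. Cx3cl1 reached 31.6 CPM in Flexor 4, against 13.8 to 14.7 CPM. Cxcl11 was 0.312 CPM in Flexor 3, against 0.705 to 0.770 CPM. Ccl7 was 1.04 CPM in Achilles 3, against 2.41 to 2.66 CPM. Ccrl2 reached 3.52 CPM in Patellar 2, against 1.56 to 1.88 CPM.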

How the results depend on the processing

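Of 92 pairwise calls of members, 58 held in every alternative and 34 were lost in at least 1. Where losses are given above by single libraries, other alternatives that also lost the call are not always listed. Of the 178 pairwise differences of members that were not called, 56 were called in at least 1 alternative. Of the 48 called fold changes largest in their comparison, 34 kept direction and threshold in every alternative, and none turned its direction. Flexor minus Achilles gave 9 called members, but 5 of 27 tested with a mean of at least 1 CPM, and 15 without the Patellar libraries or with its 8 libraries alone. Supraspinatus minus Achilles gave 17, but 11 of the same 27. Supraspinatus minus Flexor gave 8, but 17 without the Patellar libraries and 16 with its 8 libraries alone. Supraspinatus minus Patellar gave 21, but 13 with its 8 libraries alone. Fewer members were tested under the 1 CPM setting; the cause of the other shifts was not tested. Leaving out 1 library gave 5 to 13 in Flexor minus Achilles (5 without Achilles 4, Flexor 2, Flexor 3 or Flexor 4), 11 to 17 in Patellar minus Achilles, 15 to 20 in Supraspinatus minus Achilles, 19 to 26 in Patellar minus Flexor, 6 to 12 in Supraspinatus minus Flexor, 16 to 22 in Supraspinatus minus Patellar and 25 to 31 over all tendons. Correlated deviations cannot settle whether a mouse number marks the same animal in all tendons. They ran from -0.135 to 0.255 in the 24 same-number pairs (median 0.017, against -0.007 for other pairs). Of these, 2 were above 0.1, Flexor 4 with Supraspinatus 4 (0.255) and Flexor 2 with Supraspinatus 2 (0.150). Of 16 libraries, 5 correlated best with their own number. With the replicate block the counts were 6, 12, 17, 22, 10, 19 and 25 in the same order. Patellar libraries had the lowest depth, which limits members at or under their floor of 3 reads.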
